A study of Mus musculus with 42 samples.

Results

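The early LPS response of wild-type macrophages was measured as the difference between 3 RNA-seq libraries of cells treated with lipopolysaccharide (LPS) for 2 h, here called WT LPS 2 h, and 3 libraries of cells kept without treatment for 2 h, here called WT Control 2 h. These 6 libraries were chosen by their group labels out of the 42 of the study. The cells were bone-marrow-derived macrophages (BMDM), grown from the marrow of male mice aged 7 to 10 weeks for 8 to 10 days in medium with 30% L929 conditioned medium, the source of the macrophage growth factor CSF1. LPS was given at 10 ng/ml. The whole series held WT BMDM and BMDM labelled KO, from mice in which a Cre recombinase driven by the Lyz2 locus was meant to delete floxed Irf5 in myeloid cells (a C57BL/6 floxed line crossed with a B6.129P2 Cre line), as Control at 0, 2 and 24 h and with palmitate (200 µM) or LPS at 2 and 24 h. Whether the WT mice carried floxed alleles or Cre, and whether the 3 libraries of a group came from separate mice or cultures, is not given in the sources used here, so the p-values measure the spread between these libraries, which may be technical.

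LPS, a glycolipid of the outer membrane of Gram-negative bacteria, is handed by the surface protein CD14 to a receptor made of TLR4 and MD-2 (gene Ly96). The receptor signals from the cell surface through the adaptors MYD88 and TIRAP, which lead to NF-κB, MAP kinases and IRF5, and from endosomes through TICAM1 (TRIF) and TICAM2 (TRAM), which lead to IRF3 and interferon beta. Interferon beta then acts on the same cells through its receptor and switches on antiviral genes, while inhibitors such as IκBα, A20, DUSP1 and SOCS3 are made early and dampen the signal.

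The promoters of 4 genes that stand for these branches are shown as letters in the order in which transcription reads them, from 250 bases before to 50 bases after the RefSeq start on GRCm38.p6. Capitals mark the κB motif (GGG, any 3 bases, TTCC), the core of the interferon-stimulated response element (ISRE; GAAA, any 2 bases, GAAA) and the AP-1 motif (TGA, C or G, TCA), searched on both strands. Nfkbia, the gene of IκBα (chr12:55492598-55492897, minus strand), is shown for the NF-κB feedback loop, Cxcl10 (chr5:92348840-92349139, minus strand) for a chemokine with all 3 motifs, Ifnb1 (chr4:88522745-88523044, minus strand) for interferon beta itself, and Isg15 (chr4:156200769-156201068, minus strand) for its target genes.
Nfkbia: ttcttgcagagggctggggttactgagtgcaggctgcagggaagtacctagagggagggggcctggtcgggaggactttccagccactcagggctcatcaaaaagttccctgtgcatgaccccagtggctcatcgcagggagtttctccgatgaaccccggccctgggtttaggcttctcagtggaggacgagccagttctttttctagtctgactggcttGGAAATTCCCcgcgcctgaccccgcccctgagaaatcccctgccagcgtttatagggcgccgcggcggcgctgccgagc
Cxcl10: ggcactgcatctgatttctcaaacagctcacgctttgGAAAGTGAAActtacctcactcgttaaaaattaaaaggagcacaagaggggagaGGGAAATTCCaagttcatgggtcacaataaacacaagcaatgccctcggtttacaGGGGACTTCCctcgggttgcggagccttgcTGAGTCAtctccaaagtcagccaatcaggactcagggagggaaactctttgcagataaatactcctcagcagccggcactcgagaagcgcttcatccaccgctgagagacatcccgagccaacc
Ifnb1: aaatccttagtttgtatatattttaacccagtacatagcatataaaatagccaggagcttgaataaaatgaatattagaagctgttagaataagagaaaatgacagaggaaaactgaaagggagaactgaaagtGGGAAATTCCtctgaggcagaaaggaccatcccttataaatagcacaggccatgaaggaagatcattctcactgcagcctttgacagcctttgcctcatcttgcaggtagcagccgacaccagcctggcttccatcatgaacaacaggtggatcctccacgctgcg
Isg15: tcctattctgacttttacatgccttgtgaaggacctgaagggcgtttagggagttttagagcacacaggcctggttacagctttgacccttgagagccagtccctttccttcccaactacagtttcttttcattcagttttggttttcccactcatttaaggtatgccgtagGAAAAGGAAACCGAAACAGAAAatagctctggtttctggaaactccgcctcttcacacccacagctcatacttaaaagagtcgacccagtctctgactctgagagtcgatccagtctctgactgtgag
In Nfkbia the marked κB motif began 29 bases before the start, at position -29. In Cxcl10 κB motifs began at -159 and -104, the ISRE core at -213 and an AP-1 motif, whose pattern matches on both strands, at -74. The κB motif of Ifnb1 began at -116, and Isg15 held 3 overlapping ISRE cores, at -78, -72 and -66, printed as a single capital run.

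LPS changed the RNA of these cells broadly within 2 h. Of 11624 genes tested, 1628 were called higher, which is 14% of them, and 1058 lower, which is 9.1% (quasi-likelihood F test of edgeR, Benjamini-Hochberg adjusted p under 0.05, the rule for every call here). These shares are the background for every list count at 2 h. Over 2-fold, 509 genes were higher and 286 lower. Over 4-fold there were 232 and 60, and 64 genes were more than 16-fold higher. The 3 libraries of a group all lay above or below the 3 of the other for 4086 genes, 35.2% of those tested, and among the called genes this was so for 1554 of the higher and 987 of the lower. The 509 genes higher over 2-fold held 2.37 to 2.38% of the counts in WT Control 2 h and 8.86 to 9.03% in WT LPS 2 h. The 286 lower genes went from 0.521 to 0.542% down to 0.163 to 0.175%. These calls are relative to the median gene, because the TMM scaling set the libraries of WT LPS 2 h at 0.875 to 0.905 against 0.994 to 1.005 in the controls. With library totals alone the median log2 fold change moved from -0.01 to -0.17, and the share of calls that were higher moved from 60.6% to 29.7% (1045 higher, 2476 lower).

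**Figure D1:**
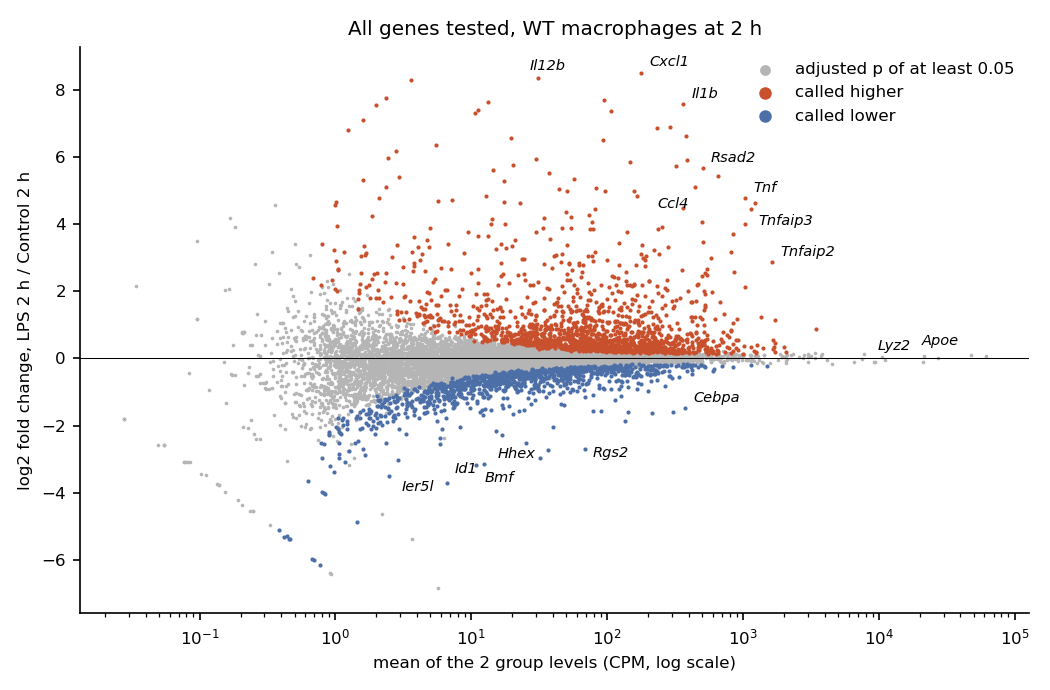
Each point is 1 of the genes tested, with the mean of the WT Control 2 h and WT LPS 2 h levels (CPM, counts per 1000000 counts of the TMM-scaled library, log axis) against the log2 fold change. Called genes are coloured by direction, Cxcl1 lies at 8.51 and Il12b at 8.35, and fold changes of genes with a mean under about 1 CPM depend on the prior count of the fit.

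The 6 libraries held 3091726 to 6725200 counts each, so that 3 counts corresponded to 0.445 to 1.07 CPM, and intervals from counts cover counting error only. Replicates of a group correlated across genes with r from 0.973 to 0.985 and every pair differed by more than sampling noise (chi-square per degree of freedom 2.32 to 4.65). The summed level of 12 macrophage markers was 18269 to 18855 CPM in the controls and 18144 to 19825 CPM after LPS. Lyz2 alone had means of 9569 and 8863 CPM within these sums. Of the 12, 3 were called higher, Cd14 (2.55) among them, and 1 lower, Fcgr1 (-0.47), beside 14% and 9.1% of all genes tested. Lyz2, Csf1r and Adgre1 were among the members not called. Markers of other cells were at low levels. Summed granulocyte precursor markers lay at 69.3 to 80.9 and 96.6 to 128 CPM, the sum highest in LPS library 3. Ngp, Ltf, S100a9 and Lcn2 were called higher (4 of 7 tested, beside 14% of all genes tested). In LPS 2 h against palmitate 2 h, 0 of the 7 were called. Against WT Control 2 h, their median log2 fold change was 1.12 with LPS and 0.78 with palmitate. Elane was at 0, 0, 0 and 0, 0, 4 counts and Retnlg at 0 in all 6. B cell markers lay at 27.5 to 29.9 and 33.3 to 41.4 CPM, T or NK cell markers at 27.4 to 34.6 and 38.3 to 43.8 CPM (nearly all of it Cd4, with Trac at 0), dendritic cell markers at 2.96 to 6.39 and 2.50 to 9.47 CPM, and 4 of 6 erythroid markers had no count. Control library 2 held 64.5 CPM of fibroblast markers (Col1a1 192 counts) against at most 2.37 CPM in the other 5 libraries. The part of these cells in the results was not tested, and in bulk RNA a change in cell number of a type and a change in RNA per cell cannot be told apart.

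Genes of the TNF and interleukin family, the secreted signals of the innate response, were among those with the highest fold changes. Of 26 members with a count, 22 passed the filter on low counts, 18 of these were higher and 0 lower (none at an unadjusted p under 0.05 and none with DESeq2), and the median log2 fold change was 3.83, against -0.01 over all genes tested. Tnf (ENSMUSG00000024401, chr17:35199381-35202007, minus strand), the gene of tumour necrosis factor, had 69.3, 76.6 and 72.9 CPM in WT Control 2 h and 2023, 1917 and 2023 CPM in WT LPS 2 h. All 3 treated libraries lay far above all controls, a 27.2-fold difference (log2 fold change 4.77, SE 0.09, adjusted p 2.89e-40). Per kilobase of exon, Tnf moved from rank 772 to rank 17 among protein-coding genes. Il1b (ENSMUSG00000027398, chr2:129364570-129371139, minus strand), which encodes the inflammasome substrate interleukin 1 beta and overlaps an antisense gene, had 3.29, 3.97 and 4.00 CPM without and 686, 832 and 651 CPM with LPS. No treated library came near a control, with a log2 fold change of 7.57 for Il1b (SE 0.18, adjusted p 7.02e-36) and 7.36 for its relative Il1a (SE 0.24).

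Several cytokine genes were at or near 0 in the controls. Il12b, which encodes the p40 chain of interleukins 12 and 23, had 0, 3 and 0 counts there and 73.0, 56.5 and 57.0 CPM after LPS, a ratio of 361 with a counting interval of 123 to 1753. Il6, the acute phase cytokine, rose from 0.387, 0.496 and 0.296 CPM to 34.3, 36.8 and 45.9 CPM, a ratio of 103 (49.5 to 257). Lif had 2 counts over the controls and 278 over the treated libraries, a ratio of 191 (52.5 to 1588). Edn1 and Il23a had 0 counts in the controls and were at least 28.9-fold and 17-fold higher, set against a floor of 3 counts over the group. Csf3, the gene of the granulocyte growth factor G-CSF, did not pass the filter and was at least 10.6-fold higher by the same floor. Il10, the main anti-inflammatory cytokine of macrophages, was also higher, at 29, 39.5 and 31 CPM against 1.94, 1.32 and 2.82 CPM (log2 fold change 4.01, SE 0.30, adjusted p 3.54e-16). Tgfb1, at 336 ± 4.89 and 383 ± 24.4 CPM (SD, n = 3), did not pass (0.19, adjusted p 0.0846), and neither did Osm at 13.3 ± 1.89 and 14.5 ± 2.59 CPM (0.15, adjusted p 0.688).

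**Figure D2:**
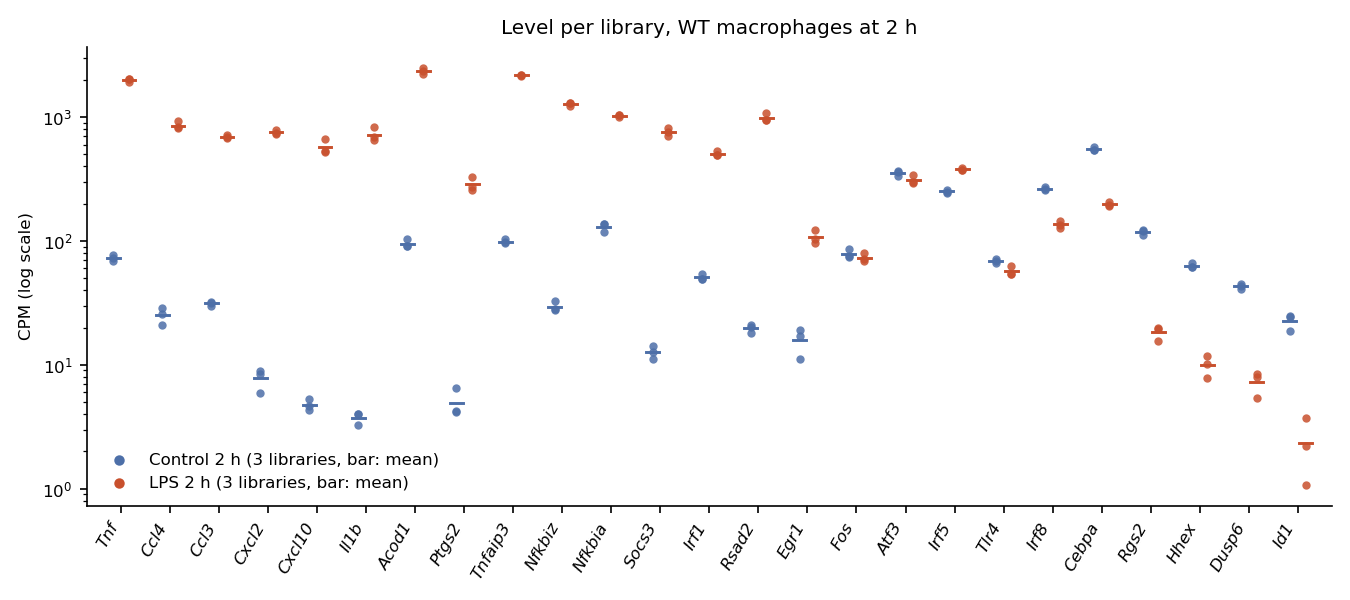
Level of 25 genes in each of the 6 libraries (CPM, log axis), with the mean of each group as a bar. The cytokine, chemokine and inhibitor genes at the left lie higher in all 3 LPS libraries, Fos overlaps between the groups, and the regulators at the right, from Irf8 to Id1, lie lower.

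Most chemokine genes rose. Of 10 CC chemokines tested 8 were higher (median log2 fold change 4.16) and of 9 CXC chemokines 8 (median 4.78), with 0 lower in either list at any threshold used, including an unadjusted p under 0.05 and DESeq2. Cxcl1 (ENSMUSG00000029380, chr5:90891241-90893115, plus strand), which draws neutrophils through CXCR2, had 0.581, 1.16 and 1.04 CPM without and 366, 345 and 345 CPM with LPS, the highest log2 fold change among called genes with at least 10 CPM in the higher group (8.51, SE 0.22, adjusted p 1.76e-33). Its neighbour Cxcl2 rose from 8.90, 8.44 and 5.93 CPM to 747, 726 and 788 CPM (6.62, SE 0.18). Cxcl10, a ligand of CXCR3 on T cells whose promoter is shown above, rose from 4.65, 4.30 and 5.33 CPM to 528, 663 and 534 CPM (6.90, SE 0.15), and the gene overlaps Art3. Ccl4 and Ccl3, neighbouring genes of inflammatory chemokines, reached 828, 926 and 813 CPM and 696, 684 and 714 CPM, from means of 25.2 ± 3.92 and 31.3 ± 1.27 CPM (SD, n = 3). Per kilobase of exon the level of Ccl4 went from 38.1 to 1296 CPM, which placed it at rank 16 among protein-coding genes with LPS, next to Tnf. Ccl5, which draws T cells and monocytes, rose from 9.68, 11.6 and 9.78 CPM to 129.5, 157 and 155 CPM (3.84, SE 0.12). Ccl6 (207 ± 33.3 and 192 ± 61.0 CPM, SD, n = 3) and Cxcl14 (4.34 ± 0.732 and 3.52 ± 1.58 CPM) did not pass the test, with adjusted p of 0.693 and 0.542.

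The list of the receptor, its adaptors and downstream signalling genes was mostly higher, with a lower median log2 fold change than the cytokines. All 27 members of this list were tested, and 16 were higher and 2 lower, with a median log2 fold change of 0.40. Cd14, the coreceptor, rose from 158, 160.3 and 145 CPM to 834, 1029 and 842 CPM (2.55, SE 0.12, adjusted p 6.39e-24), so that every treated library was above 800 CPM. Myd88 rose from 61.6 ± 2.67 to 158 ± 7.02 CPM (1.37, SE 0.08) and the kinase gene Irak2 from 87.2 ± 3.38 to 204 ± 6.20 CPM (1.23, SE 0.07; SD, n = 3). Tlr4 itself was slightly lower, at 71.6, 66.2 and 69.5 CPM without and 62.6, 54.5 and 53.7 CPM with LPS (-0.29, SE 0.10, adjusted p 0.0245). That call was lost without Control library 1 (-0.27) or 3 (-0.29) and without LPS library 2 (-0.27) or 3 (-0.25). Ly96, the gene of MD-2, was at 5.50 and 4.16 CPM and was not called (-0.38, SE 0.27, adjusted p 0.345). Tab1, which encodes an activator of the kinase TAK1, was lower at 4.65, 6.99 and 6.87 CPM against 16.6, 16.2 and 15.3 CPM (-1.33, SE 0.22, adjusted p 4.87e-06). Irak1 and Ikbkg, at 98.8 ± 2.03 and 96.0 ± 2.88 CPM in the controls and 98.1 ± 3.07 and 105 ± 9.25 CPM after LPS, did not pass. Irf5 (chr6:29526625-29541871, plus strand), the factor targeted in the mice labelled KO (its counts were not lower there), rose from 249.9, 245 and 259 CPM to 389, 377 and 373 CPM (0.59, SE 0.06, adjusted p 1.63e-12), without overlap, although its counts may include reads of Tnpo3 on the other strand.

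NF-κB subunits and their inhibitors rose as a group. Of 18 members tested 17 were higher and 0 lower, with a median of 2.17, and the only member not called, Cyld (60.7 ± 8.62 and 69.6 ± 5.46 CPM, SD, n = 3), had 0.21 (adjusted p 0.097). No member was lower at an unadjusted p under 0.05 or with DESeq2. Tnfaip3 (ENSMUSG00000019850, chr10:19000910-19015657, minus strand), the gene of the ubiquitin editing inhibitor A20, had 97.4, 96.6 and 103 CPM without and 2179, 2189.6 and 2161 CPM with LPS. Its replicates spread by less than 2% around the treated mean of 2176 CPM, and its adjusted p of 2.21e-43 was the lowest of all genes (log2 fold change 4.46, SE 0.07). Nfkbiz, which encodes the nuclear cofactor IκBζ needed for Il6 and Il12b, rose from 32.7, 27.8 and 28.2 CPM to 1306, 1221 and 1304 CPM (5.44, SE 0.11). Nfkbia, whose product IκBα returns NF-κB to the cytoplasm, rose from 118, 136 and 138 CPM to 1046, 1011 and 1037 CPM (2.98, SE 0.08). Among the subunits, Rel had a log2 fold change of 2.18, Nfkb2 of 1.90, Nfkb1 of 1.80, Relb of 1.55 and Rela of 1.33, so the gene of p65, which is held ready in the cytoplasm, had the lowest of the 5. Tnip1, which encodes a partner of A20 and overlaps another gene, reached 1466 ± 104 CPM from 246 ± 22.1 CPM (2.57, SE 0.07; SD, n = 3).

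Immediate early transcription factors, which other stimuli also switch on within minutes, were divided at 2 h. Of 28 members, 20 were higher and 2 lower, with a median of 0.98. Egr1 rose from 17.2, 19 and 11.1 CPM to 97.0, 104 and 122 CPM (2.79, SE 0.19, adjusted p 1.57e-17) and Egr2 from 28.8, 36.6 and 29.9 to 121, 114 and 129 CPM (1.93, SE 0.14). Maff and Csrnp1 had 4.07 and 4.27, and Junb rose from 156 ± 7.41 to 633 ± 38.6 CPM (2.02, SE 0.08; SD, n = 3). Fos, the partner of Jun in AP-1, was at 75.7, 73.6 and 86.4 CPM without and 69.4, 79.3 and 71.7 CPM with LPS, and the groups overlapped (-0.09, SE 0.11, adjusted p 0.613). Jun (295 ± 16.1 and 250 ± 10.7 CPM, -0.24, SE 0.07, adjusted p 0.00567) and Atf3 (356 ± 17.4 and 311 ± 24.6 CPM, -0.19, SE 0.07, adjusted p 0.035) were slightly lower. The call of Jun was lost without Control library 2 (-0.20), and that of Atf3 without Control library 2 (-0.16) or 3 (-0.18) and without LPS library 1 (-0.15) or 2 (-0.16). In cells without stimulus, Fos was at 45.2, 58.1 and 54.9 CPM at 0 h and Jun at 221, 238 and 217 CPM, below all WT Control 2 h and WT LPS 2 h libraries.

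RNA of interferon beta was present by 2 h and most genes of the interferon list were higher. Whether interferon beta had acted on the cells by then was not tested. Ifnb1 (ENSMUSG00000048806, chr4:88522025-88522774, minus strand) had 2 counts over the 3 controls and 358 over the treated libraries, at 19.3, 31.9 and 27.7 CPM, a ratio of 246 with a counting interval of 67.7 to 2043. Of the 42 genes of this list tested, which holds Ifnb1, interferon regulatory factors and receptor genes as well as interferon-stimulated genes, 34 were higher and 1 lower, with a median of 1.36. Ifit1, an antiviral RNA binding protein, rose from 13.2, 11.1 and 11.4 CPM to 567, 760.4 and 559 CPM (5.73, SE 0.14, adjusted p 3.32e-36). Rsad2, the gene of viperin, rose from 20.9, 20.2 and 18.1 CPM to 949, 1090.1 and 941 CPM (5.66, SE 0.14), and the ubiquitin-like modifier Isg15 from 1.35, 4.63 and 4.45 CPM to 70.5, 64.9 and 61.7 CPM (4.17, SE 0.20). Irf1, a transcription factor of the interferon response, rose from 50.9 ± 2.64 to 507 ± 21.1 CPM (3.31, SE 0.09; SD, n = 3) and overlaps another gene. The response was uneven within the list. Irf7, the master amplifier of type I interferon, was at 45.5, 61.7 and 42.8 CPM without and 44.7, 38.4 and 40.3 CPM with LPS (-0.30, SE 0.23, adjusted p 0.411), and Trim30a (0.20, adjusted p 0.144) and Irf2 (-0.13, adjusted p 0.334) also did not pass. Irf8, a lineage factor of monocytes, was the member called lower, at 273, 262 and 256 CPM and 146, 127 and 135 CPM (-0.96, SE 0.07, adjusted p 1.72e-16).

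**Figure D3:**
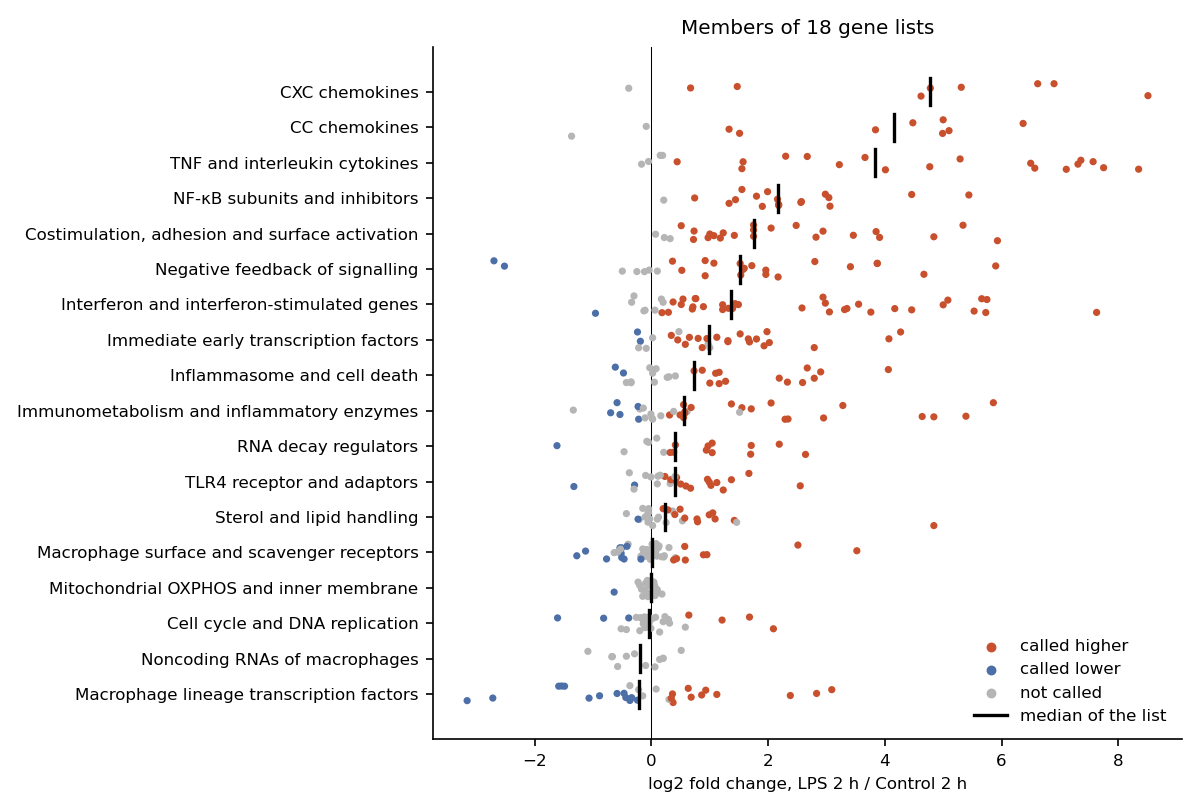
Log2 fold change of the tested members of 18 gene lists, 1 point per gene, coloured by call, with the median of each list as a black bar. The medians run from 4.78 (CXC chemokines) to -0.22 (macrophage lineage transcription factors).

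Most genes that restrain signalling rose as well. Of 26 tested, 19 were higher and 2 lower, with a median of 1.52. Socs3, which blocks STAT3 signalling of the interleukin 6 receptor, rose from 12.8, 11.1 and 14.2 CPM to 756, 822 and 708 CPM (5.90, SE 0.13, adjusted p 3.59e-38). Dusp1, a phosphatase of p38 and JNK, rose from 61.6, 51.0 and 54.5 CPM to 233, 245 and 272 CPM (2.17, SE 0.12, adjusted p 9.69e-22). Dusp2, Dusp5, Dusp16 and Dusp4 also rose, by 3.87, 2.80, 1.96 and 1.52 on the log2 scale. Dusp6, a phosphatase selective for ERK, moved the other way, from 43.4, 40.9 and 45.3 CPM to 5.37, 8.43 and 7.99 CPM (-2.52, SE 0.17, adjusted p 2.62e-17). Rgs2 (ENSMUSG00000026360, chr1:143999338-144004161, minus strand), a brake on Gq-coupled receptors, fell from 121, 122 and 112 CPM to 20, 19.5 and 15.6 CPM (-2.70, SE 0.11, adjusted p 1.14e-26), while Rgs16 (1.72) and Rgs1 (0.92) were higher. Ppp1r15a, which restores translation after stress, rose from 29.2, 36.1 and 26.5 CPM to 430.4, 429.5 and 475 CPM (3.86, SE 0.10). Otud1 (0.10) and Pdcd4 (-0.25) were among the members that did not pass.

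Regulators of mRNA decay were mostly higher. Of 17 tested, 11 were higher and 1, Zfp36l2, lower, beside 14% and 9.1% of all genes tested, with a median of 0.41. Zfp36, the gene of tristetraprolin, which removes Tnf mRNA, rose from 145, 146 and 129 CPM to 446, 460.4 and 470.1 CPM (1.71, SE 0.09, adjusted p 9.56e-23). The endonuclease gene Zc3h12a (Regnase-1) rose from 56.5 ± 0.803 to 257 ± 8.41 CPM (2.19, SE 0.11) and its relative Zc3h12c from 98.0 ± 6.48 to 612 ± 18.8 CPM (2.64, SE 0.11; SD, n = 3). In the Zfp36 family the 3 members differed. Zfp36l2 fell from 334, 321 and 309.5 CPM to 91.9, 105 and 114 CPM (-1.62, SE 0.09, adjusted p 1.23e-21), and Zfp36l1 was at 112 ± 10.4 and 106 ± 5.20 CPM (-0.08, adjusted p 0.555).

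Surface, inflammasome and metabolic genes were included in the response. Of 25 costimulation and adhesion genes tested 22 were higher and 0 lower (0 at an unadjusted p under 0.05 and with DESeq2), with a median of 1.75. The integrin ligand Icam1 rose from 78.2, 83.7 and 89.9 CPM to 976, 916 and 893 CPM (3.46, SE 0.08, adjusted p 1.85e-37), Clec4e, which senses mycobacterial glycolipid, from 31.6 ± 2.93 to 478 ± 37.5 CPM (3.91, SE 0.14; SD, n = 3), and Cd69 and Cd40 had 5.93 and 3.85. Of 27 inflammasome and cell death genes 14 were higher and 2 lower, and the rise of Nlrp3, the sensor that LPS primes, from 58.8, 59.2 and 51.3 CPM to 933, 998 and 881 CPM (4.06, SE 0.11, adjusted p 1.39e-34) was the highest in that list. Pycard and Casp1, its adaptor and protease, had -0.35 and 0.27 and were not called. Of 35 immunometabolism genes 19 were higher and 5 lower (median 0.55). Acod1, the mitochondrial enzyme that makes itaconate, rose from 90.6, 104 and 90.7 CPM to 2350.5, 2504 and 2239 CPM (4.64, SE 0.14, adjusted p 7.91e-32), and Ptgs2, the inducible cyclooxygenase, from 4.26, 6.45 and 4.15 CPM to 275, 331 and 259.8 CPM (5.86, SE 0.22). Nos2, the inducible nitric oxide synthase, had 2 counts over the controls and 71 over the treated libraries, a ratio of 48.9 (13 to 411), which left it at 6.80, 6.99 and 3.34 CPM. Glycolytic genes differed, with Hk2 (0.31), Pfkfb3 (0.49) and Slc2a1 (0.57) higher, Gapdh (-0.23) lower, and Pkm at 2189 ± 21.3 and 1986 ± 116 CPM not called (-0.14, adjusted p 0.188).

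Transcription factors of the macrophage lineage held as many falls as rises. Of 29 tested, 11 were higher and 13 lower, with a median of -0.22, the lowest of the 18 lists. Cebpa, a factor of myeloid commitment, fell from 546, 579.9 and 544 CPM to 190.3, 196 and 206 CPM (-1.49, SE 0.10), and Hhex from 61.4, 67.0 and 61.3 CPM to 11.8, 10.1 and 7.80 CPM (-2.72, SE 0.14). Id1, an inhibitor of bHLH factors, fell from 24.6, 24.5 and 18.7 CPM to 1.07, 3.70 and 2.23 CPM (-3.16, SE 0.30), whereas Id2 (384 ± 2.93 and 347 ± 10.6 CPM) and Id3 (62.4 ± 2.75 and 77.0 ± 16.6 CPM, SD, n = 3) did not pass. Tfec and Klf7 were the highest of the list, at 3.09 and 2.83, and Zeb2 rose from 577 ± 6.30 to 1045 ± 88.5 CPM (0.86, SE 0.05). Spi1, the gene of PU.1, was 0.36 higher.

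Ier5l had the largest fall among called genes with at least 10 CPM in the higher group, from 12.4, 12.6 and 12.0 CPM to 1.07, 1.23 and 0.557 CPM (-3.71, SE 0.40, adjusted p 1.21e-10). Bmf, a BH3-only death protein, fell from 19.5, 21.3 and 17.8 CPM to 1.79, 2.26 and 2.23 CPM (-3.18, SE 0.25), and the α-arrestin gene Arrdc3, which overlaps another gene, from 61.4, 60.1 and 50.5 CPM to 2.15, 7.60 and 10.2 CPM (-2.96, SE 0.21). Cxcr4 fell from 177, 186 and 155 CPM to 79.4, 85.3 and 71.9 CPM (-1.13, SE 0.10, adjusted p 4.68e-13), Cx3cr1, the fractalkine receptor, from 14.5, 11.7 and 19.9 CPM to 8.23, 5.55 and 5.94 CPM (-1.28, SE 0.31, adjusted p 0.00139), and Enc1, Arhgap25, Lpar6, Cd300lb and 1700017B05Rik by 1.25 to 2.28 on the log2 scale. Most receptors of the surface list were not called, which was also so for all genes tested. Of 54 tested 8 were higher and 10 lower, beside 14% and 9.1% of all genes tested, with a median of 0.01. Csf1r (1974 ± 78.5 and 2013 ± 60.3 CPM) and Cd36 (2013 ± 81.8 and 2122 ± 159.7 CPM, SD, n = 3) did not pass. Adora2a and Adora2b, receptors of adenosine, were the highest of that list at 3.52 and 2.51.

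Of 31 genes of oxidative phosphorylation and the inner mitochondrial membrane 0 were higher (1 at an unadjusted p under 0.05, 0 with DESeq2) and 1 lower. Of all genes tested 14% and 9.1% were. The median of the list was 0.00. The lower gene was Tfam, which packages mitochondrial DNA, at 21.3, 23.3 and 20 CPM and 15.4, 14.6 and 12.1 CPM (-0.64, SE 0.16, adjusted p 0.00251). Ghitm, an inner membrane protein, was at 96.8, 103 and 99.3 CPM and 102, 125 and 111 CPM (0.18, SE 0.08, adjusted p 0.075), with overlapping groups. Of 30 sterol and lipid genes 12 were higher and 1 lower (median 0.23), beside 14% and 9.1% of all genes tested. The higher ones included Insig1, a regulator of sterol synthesis (1.42). Ch25h, which makes 25-hydroxycholesterol, rose from 1.94, 0.165 and 0.593 CPM to 22.9, 29.2 and 22.3 CPM (4.84, SE 0.51). Apoe, at 27201 ± 1626 and 27626 ± 1974 CPM (SD, n = 3), was the highest protein-coding gene per kilobase in both groups and was not called (0.02). Of 29 cell cycle genes 4 were higher and 3 lower (median -0.05), shares near the 14% and 9.1% of all genes tested, with Mki67 at 182, 162 and 251 CPM and 686, 554 and 667 CPM (1.68, SE 0.10, adjusted p 4.07e-19), Cdkn1a, the gene of the cell cycle inhibitor p21, at 2.09, E2f2 at -1.61 and Top2a, Cdk1 and Ccnb1 not called. Of 12 noncoding RNAs tested, Malat1 and Rpph1 among them, 0 were called by edgeR or DESeq2, with 1 above and 2 below 0 at an unadjusted p under 0.05.

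The 225 matched genes called higher over 4-fold had a median span of 14 kb and a median exon length of 3.35 kb, against 23.5 and 4.49 kb for all genes tested that had a position. The 272 called lower over 2-fold had 12.9 and 3.78 kb, and a median level of 4.41 CPM against 22.2 CPM. All 1604 called higher, in contrast, had a median span of 29.6 kb and exon length of 5.27 kb, above those of all genes tested, and the 1037 called lower had 20.3 and 4.61 kb. Promoters of RefSeq were matched for 8900 of 11393 tested genes with a symbol, and for 76.6% of these the RefSeq start lay within 100 bases of the annotated start. The κB motif was in 24 of 176 promoters of genes called higher over 4-fold (13.6%), in 6.38% of all 8900 and in 6.06% of 809 called lower at any fold change. The ISRE core was in 11.9%, 3.30% and 1.11% of these sets, and AP-1 in 9.09%, 3.44% and 3.58%. The CRE core (TGAC followed by GTCA) was in 2.27%, 3.35% and 2.10%, and the serum response element core (CC, 6 bases of A or T, GG) in 1.70%, 1.30% and 0.865%. The TATA box (TATAAA), looked for after the other motifs had been counted, was in 20.5%, 6.70% and 4.70%. Of the 1297 promoters of all genes called higher, 9.25% held κB, 5.24% the ISRE core, 4.24% AP-1 and 9.41% the TATA box. Of the 210 promoters of genes called lower over 2-fold, the shares were 6.19%, 1.43%, 2.38% and 6.67%. Among the lists, a κB motif was in 7 of 15 NF-κB promoters and 4 of 7 CXC chemokine promoters, and an ISRE core was in 18 of 33 interferon promoters. A κB motif was in 1 of 6 CC chemokine and 1 of 21 feedback promoters. It was in 0 of 22 immediate early, 0 of 16 RNA decay, 0 of 23 cell cycle and 0 of 8 noncoding promoters. Sets this small can hold 0 at the 6.38% of all 8900. Motif matches are letters in a window, with any overlaps between motifs counted under each, and say nothing of binding.

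The LPS effect at 2 h was then compared with the LPS effect at 24 h, each against the Control of its own time, to ask which changes lasted. At 24 h, 2280 genes were higher (19.6% of those tested) and 2314 lower (19.9%). The test of the difference between the effects called 1686 genes with a higher log2 fold change at 24 h (14.5%) and 2100 with a lower one (18.1%). These shares are the background for the list counts at 24 h and for those of the difference. Of the 509 genes higher over 2-fold at 2 h, 296 (58.2%) were also called higher at 24 h, 54 (10.6%) were called lower and 159 were not called. The difference was called towards a lower log2 fold change for 296 and towards a higher one for 65 of them, and their median log2 fold change was 1.84 at 2 h and 0.83 at 24 h. Of the 286 lower genes, 69 were called lower at 24 h and 8 higher, and the median moved from -1.45 to -0.17. Since these genes were picked by their size at 2 h, part of the move towards 0 is fixed by that choice. A further 890 genes not called at 2 h were called higher at 24 h with a called difference, and 1088 were called lower.

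The direction of the difference was not the same in all lists. Of 18 NF-κB genes, 13 had a called difference with a lower log2 fold change at 24 h and 0 with a higher one, and of 26 feedback genes 18 and 2. The 2 were Dusp6 (-2.52 and -0.13) and Rgs2 (-2.70 and -0.83), whose fall was smaller at 24 h. Among 28 immediate early genes 17 had a lower and 1 a higher log2 fold change at 24 h, and among 22 tested cytokines 8 and 2. A lower log2 fold change is not always a smaller effect, since Jun (-0.24 and -1.15) and Atf3 (-0.19 and -1.04) fell further and Fosl1 went from 1.98 to -2.77. Tnf, with 2023, 1917 and 2023 CPM at 2 h, was at 67.3, 55.3 and 55.7 CPM at LPS 24 h and at 17.7, 21.6 and 19.8 CPM in the Control of that time, so its log2 fold change was 1.57 instead of 4.77 (difference -3.19, adjusted p 8.61e-23). Ccl4 was not called at 24 h (adjusted p 0.52), with 19.3, 14.9 and 16.2 CPM against 17.4, 18.9 and 18.8 CPM (difference -5.24, adjusted p 5.59e-27). Tnfaip3 (difference -3.69), Nfkbiz (-4.01), Il12b (-6.50) and Ppp1r15a (-4.15) also had a smaller effect at 24 h, and Ifnb1 had no count in any WT library at 24 h. Il1b, at 41.3 ± 7.63 CPM at LPS 24 h against 0.842 ± 0.546 CPM in Control 24 h (SD, n = 3), still had a log2 fold change of 5.45, and Acod1 one of 4.02.

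Most genes of the interferon list had a higher log2 fold change at 24 h. Of 42 tested, 30 had a higher and 1 a lower log2 fold change at 24 h, 39 were called higher at 24 h and the median was 4.05, against 1.36 at 2 h. The exception was Irf1, at 3.31 and 1.36. For Irf8, counted among the 30, the higher value was a smaller fall (-0.96 and -0.12). Ccl5 rose from 147 ± 15.3 CPM at 2 h to 1996, 1902 and 2055 CPM at 24 h, while its controls were at 10.3 ± 1.07 and 6.69 ± 2.10 CPM (SD, n = 3; log2 fold changes 3.84 and 8.29, difference 4.45, adjusted p 6.67e-23). Irf7, not called at 2 h, had 6.17 at 24 h (difference 6.47, adjusted p 8.61e-23). Fcgr1, the high affinity IgG receptor, was lower at 2 h (-0.47, SE 0.13) and higher at 24 h (3.46), and H2-T22 (-0.11 and 3.72) and C3 (0.43 and 3.86) also had their main rise late. Rsad2 and Ifit1, at 5.66 and 5.73 at 2 h and 5.17 and 6.18 at 24 h, had differences that did not pass (adjusted p 0.135 and 0.174).

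**Figure D4:**
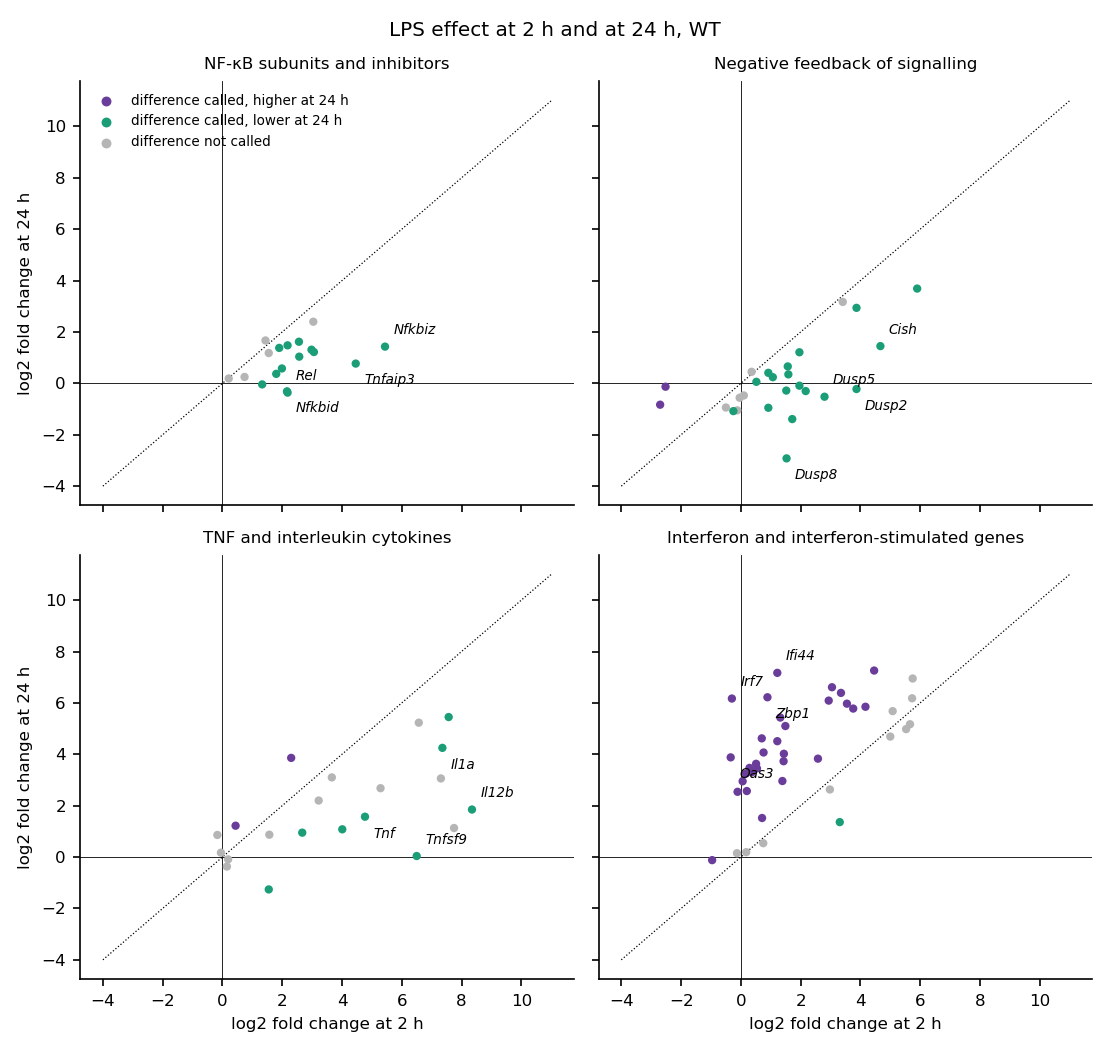
Log2 fold change of LPS at 2 h (x) and at 24 h (y) for tested members of 4 lists with a count at 24 h, 1 point per gene, coloured by the call of the difference, with the line of equal effects dotted. NF-κB, feedback and cytokine genes lie mostly under the line (13, 18 and 8 called), and genes of the interferon list mostly above it (30 called).

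Of the 286 genes that fell, 209 were not called at 24 h. Bmf was at -3.18 at 2 h and 0.00 at 24 h (difference 3.17, adjusted p 4e-12), Arrdc3 at -2.96 and 0.11 and Dusp6 at -2.52 and -0.13 (difference 2.38, adjusted p 2.59e-12). Id1 (-3.16 and -3.25), Ier5l (-3.71 and -4.75) and Enc1 (-1.87 and -1.70) had no called difference and were called lower at both times. Cebpa fell further, to -1.95 at 24 h (difference -0.46, adjusted p 0.00914). Cell cycle genes changed late, with 23 of 29 called lower at 24 h (median -0.89) against 3 at 2 h. Of all genes tested 19.9% and 9.1% were lower at these times. Mki67 turned from 1.68 to -1.63. Oxidative phosphorylation genes, with 0 higher at 2 h, had 20 of 31 higher at 24 h (median 0.29), beside 14% and 19.6% of all genes tested. Ghitm was among the higher ones at 24 h, at 0.69 (adjusted p 2.31e-11).

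**Figure D5:**
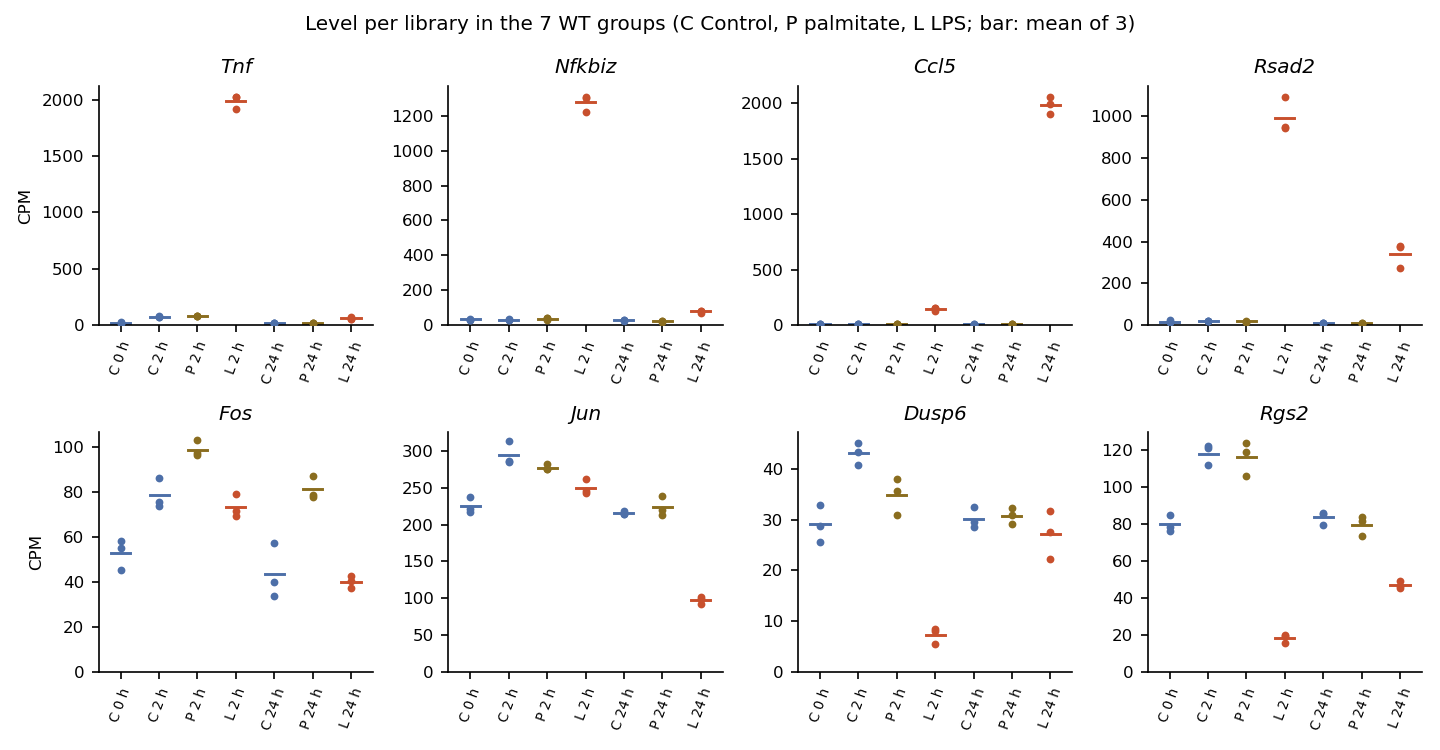
Level of 8 genes in each library of the 7 WT groups (CPM, linear axis from 0, bar at the mean of 3). Tnf and Nfkbiz are high at LPS 2 h only, Ccl5 is highest at LPS 24 h, and Dusp6 and Rgs2 are lowest at LPS 2 h.

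Other groups at 2 h and 0 h share libraries with the comparison and are given side by side. Palmitate for 2 h, a saturated fatty acid, gave 12 higher (0.103%) and 20 lower genes (0.172%) against the same WT Control 2 h libraries. LPS 2 h against palmitate 2 h gave 1626 higher (14%) and 995 lower genes (8.56%), and of the 509 and 286 genes over 2-fold against Control, 485 and 202 were called in the same direction against palmitate. Tnf was at 82.9, 84.8 and 82.1 CPM with palmitate and 4.58 higher with LPS than with palmitate on the log2 scale. Fos, not called against Control, was at 97.5, 96.5 and 103 CPM with palmitate, above all LPS 2 h libraries (-0.42, adjusted p 0.00243). WT Control 2 h in turn differed from WT Control 0 h in 977 higher (8.41%) and 680 lower genes (5.85%). Tnf was at 23.9, 16.4 and 17.2 CPM at 0 h (1.95 higher at Control 2 h, adjusted p 2.08e-19), Il1b had 1 count in each library at 0 h, and Acod1 was at 18.9 ± 4.99 CPM at 0 h and 95 ± 7.56 CPM at Control 2 h (SD, n = 3). The LPS effects above are relative to Control 2 h, not to Control 0 h.

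The same comparison in cells labelled KO asked whether the early response depended on the genotype. Irf5, the targeted gene, was at 291, 301 and 309 CPM in KO Control 2 h and 430.5, 397 and 407 CPM in KO LPS 2 h, above the 249.9, 245 and 259 CPM and 389, 377 and 373 CPM of WT. Counts over the whole gene were thus not lower in the libraries labelled KO, the floxed exons were not looked at, and the groups are named by their labels. In these cells LPS for 2 h gave 1711 higher (14.7%) and 1065 lower genes (9.16%). Of the 509 genes over 2-fold in WT, 477 were called higher there and 507 had the same sign, with medians of 1.84 in WT and 1.94 in the libraries labelled KO. Of the 286 lower genes 142 were called lower and 276 had the same sign. Their median fall was smaller in the libraries labelled KO than in WT, where it was -1.45. Since the higher and lower genes were picked by their size in WT, part of any smaller effect in the libraries labelled KO is fixed by that choice. The test of the difference between the effects called 0 genes (0%) with edgeR (810 at an unadjusted p under 0.05, lowest adjusted p 0.198) and 1 with DESeq2, Fos. Fos was at 95.5, 77.0 and 86.4 CPM in KO Control 2 h and 47.8, 45.2 and 49.3 CPM in KO LPS 2 h, a log2 fold change of -0.86 (SE 0.12) against -0.09 (SE 0.11) in WT. Keeping all genes with a count gave 33 higher and 10 lower, and 32 and 10 of these were among the 11624 genes tested. Leaving out KO LPS 2 h library 2 gave 2 and 1. Over the 140 genes named by rule, the difference ran from -1.16 (Ifnb1, 17.4 ± 4.54 CPM in KO LPS 2 h and 26.3 ± 6.38 CPM in WT LPS 2 h, SD, n = 3) to 1.85 (Ch25h), with a median size of 0.17, and 21 had an unadjusted p under 0.05.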

How the data were processed

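RNA-seq was analysed for 3 WT LPS 2 h and 3 WT Control 2 h libraries, within 42 libraries of 14 groups. Libraries were stranded, ribodepleted total RNA from 10 ng, read in pairs of 100 bases. The submitters' processing notes list fastp 0.19.11 and STAR 2.7.3a, and per the methods STAR aligned the reads to mm10 and counted them. The authors deposited raw counts per gene, with no normalisation. The annotation release and whether strand was used in counting are not stated, so overlapping genes are uncertain. Columns name a group and no replicate, so library numbers follow column order and pair nothing. Of 37310 identifiers, 32620 were matched to a symbol in GENCODE of GRCm38, 0 columns were left unmapped and 0 rows lacked a gene.

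Counts were fitted in R 4.3.3 with edgeR 4.0.16 (filterByExpr, TMM, quasi-likelihood F test, 1 mean per group over 42 libraries) and adjusted by Benjamini-Hochberg over 11624 genes, which held 99.88% of counts. The study used DESeq2, which is an alternative here. The SE was taken as the size of the log2 fold change over the root of F. Levels are CPM on the TMM scale, and unless another test is named every adjusted p is from edgeR. An exact permutation test of 3 against 3 cannot go below 0.10, so calls rest on the model. The script was tested on simulated data. Alternatives were RLE factors, DESeq2 1.42.0, all genes with a count, only the libraries compared, each library left out, a minimum of 1 on the log2 scale and, added after the data were seen, no scaling factor.

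The members and gene lists were chosen with earlier results of these data known. Named genes were a fixed list, the 8 per direction with the smallest adjusted p and the 8 with the largest fold change (no overlap, mean of at least 1 CPM or 10 CPM in the higher group), up to 3 called members per direction and 2 not called per list, and 5 per direction for each tested difference. Mir155hg, on the fixed list, was not analysed here, and some genes that the rule selects are not reported here. Other list members that are named were chosen after their values were seen. Ratios use the 95% exact counting interval, and a floor of 3 counts over the group stands for 0.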

Additional observations from a re-analysis of the deposited data

Results flagged for a closer look

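The LPS effect differed between 2 h and 24 h in the test of the difference itself for 1686 genes with a higher and 2100 with a lower log2 fold change at 24 h, and the named genes among them are given here as 24 h minus 2 h on the log2 scale. The log2 fold change was lower at 24 h for the cytokine and chemokine genes Il12b (-6.50), Ccl4 (-5.24), Ccl3 (-4.09), Cxcl2 (-3.81), Tnf (-3.19), Cxcl10 (-2.96), Il10 (-2.93) and Il1b (-2.12). It was also lower for NF-κB inhibitors and feedback genes, with Ppp1r15a at -4.15, Nfkbiz at -4.01, Tnfaip3 at -3.69, Dusp1 at -2.47, Socs3 at -2.21, Zfp36 at -1.96 and Nfkbia at -1.67. Transcription factors were lower too, with Egr2 at -3.96, Egr1 at -2.79, Atf3 at -0.85 and Irf5 at -0.47, as did the enzymes Ptgs2 (-3.96) and Acod1 (-0.61), the proteoglycan gene Sdc4 (-3.39), Tnfaip2 (-2.36) and Cd14 (-1.04).

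The log2 fold change was higher at 24 h for Fcgr1 (3.93), the class I gene H2-T22 (3.82), the complement gene C3 (3.42), Lgals3bp (3.10) and Ms4a6c (2.26). It was also higher for Ghitm (0.51) and Tlr4 (0.37), which were lower or not called at 2 h. What sets these differences was not tested.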

How the results depend on the processing

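Of 1540 values of named genes under the alternatives, 1496 kept direction and call, 24 lost and 19 gained a call, and 1 reversed, Apoe at -0.14 without scaling factors. Calls were lost or gained by 21 genes, Abcg1, Atf3, Ccl6, Cdkn1b, Cyld, E2f8, Ghitm, Id2, Id3, Irf2, Jun, Lgals3bp, Lyz2, Mcm6, Ms4a6c, Nlrp1b, Pdcd4, Pkm, Tgfb1, Tlr4 and Zfp36l1. Of 396 list counts, 354 stayed within 1.5 times. A minimum of 1 on the log2 scale left 795 called genes, 509 higher and 286 lower. Without scaling factors, LPS against Control gave 1045 higher and 2476 lower, LPS against palmitate 1065 and 2648, and 2828 genes were lower in the libraries labelled KO, where fitting only the libraries compared gave 685 lower. The genotype difference, 0 genes, became 1 (1 lower) with DESeq2 and 43 (33 higher, 10 lower) with all genes that had a count. Of these 33 and 10, 32 and 10 were already among the genes tested. Leaving out a library gave 0 to 3 (0 to 2 higher, 0 to 1 lower), the highest without KO LPS 2 h library 2. For LPS against Control in WT it gave 2180 to 2402 called genes (1374 to 1513 higher, 806 to 889 lower). No other count of a comparison moved by over 1.5 times. The cause was not tested, and fewer or other genes and libraries enter some of these fits by construction. No paired analysis was possible because the columns of the table carry no replicate numbers. At 3 libraries a group and 3 counts at 0.445 to 1.07 CPM, depth limits what can be seen for genes below about 1 CPM.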

Other observations

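Zinc finger genes, looked at after their values had been seen, were often called lower at 2 h. Of 282 tested genes whose symbol is Zfp and a number, 101 were called lower (35.8%, against 9.1% of all genes tested) and 17 higher, the median log2 fold change was -0.57 against -0.01 and 81.6% lay below 0, against 51.2% of all genes tested. Without scaling factors 147 of the 282 were called lower, when 2476 of all 11624 genes tested were. Zfp120 was at 32.9, 27.1 and 32.2 CPM in WT Control 2 h and 11.8, 8.22 and 9.66 CPM in WT LPS 2 h (-1.67, SE 0.16, adjusted p 1.72e-12). Zfp398 was at 10.1, 9.6 and 10.2 CPM and 2.15, 1.85 and 1.30 CPM (-2.54, SE 0.31). Zfp316 (-2.03), Zfp90 (-1.50) and Zfp467 (-1.42) were also called lower, whereas Zfp800 (1.58) and Zfp263 (1.53) were higher, as was the decay regulator Zfp36 (1.71), which belongs to another family of zinc fingers. The family was weakly expressed, with a median of 6.68 CPM against 21.5 CPM for all genes tested, and the part of low level in the count was not tested. At 24 h the family had 16 of 282 genes higher and 30 lower, with a median of -0.02, beside 19.6% and 19.9% of all genes tested. The difference was called towards higher at 24 h in 68 and lower in 20, beside 14.5% and 18.1% of all genes tested.

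Histone genes, also looked at after their values had been seen, had 15 of 43 called lower and 0 higher at 2 h (0 at an unadjusted p under 0.05 and with DESeq2), with a median of -0.61. Of all genes tested 9.1% were lower and 14% higher at that time. At 24 h 33 histone genes were called lower, beside 19.9% of all genes tested, with a median of -1.44.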
